A study of Sus scrofa with 22 samples.

Results

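The genes described here are those with which the brain burns ketone bodies and fatty acids: OXCT1, BDH1 and ACAT1 of ketone use, the ketone carrier gene SLC16A1, the carnitine palmitoyltransferase genes CPT1A, CPT1C and CPT2, and PDK4, a brake on glucose oxidation. They were chosen by symbol, and 7 of the 8 matched 1 pig Ensembl identifier among the 31907 in the count tables. SLC16A1 had no identifier in the symbol table used here, so it has no value below and was not analysed here. All 7 matched genes passed the filter on low counts, as did 14994 genes in all. The 22 piglets (Sus scrofa) had bile duct ligation (BDL, 7 females and 4 males), which closes the outlet of bile from the liver, or sham surgery (SHAM, 5 females and 6 males) at an age of 8 days, and were followed for 3 weeks. The labelled tissue is the cerebellum, each library carries its own number, taken here as that of 1 animal, and strain, litter and feeding are not given in these sources. In such bulk tissue, fewer cells of a type and less RNA per cell cannot be told apart.

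Ketone bodies are made from fatty acids in the liver during fasting and milk feeding, travel in blood, and enter brain cells through monocarboxylate transporters such as the SLC16A1 product. Inside mitochondria, BDH1 oxidises 3-hydroxybutyrate to acetoacetate, OXCT1 moves coenzyme A onto acetoacetate, the rate-limiting step of ketone use outside the liver, and ACAT1 splits the product into acetyl-CoA. High ketone use by the suckling brain is known from rodents and humans, while newborn pigs are known to make few ketone bodies in the liver. Long-chain fatty acids reach the same acetyl-CoA pool after CPT1 enzymes attach carnitine to them and CPT2 removes it again inside the mitochondrion. PDK4 phosphorylates and so inactivates pyruvate dehydrogenase, which spares glucose when fat or ketones are burned, and is a well-known target of PPAR and glucocorticoid receptors.

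None of the 7 genes passed the test of BDL against SHAM. The 3 ketone use genes were all on the lower side in BDL, by 0.09 to 0.19 on the log2 scale, while CPT1C, CPT2 and PDK4 were on the higher side. Across the genome the split was even, with 49.7% of the 14994 tested genes on the lower side and 50.3% on the higher side. edgeR's quasi-likelihood test called 0 of the 7 and 0 genes in all (0%). At an unadjusted p under 0.05 it had 1 of the 7, OXCT1, against 4.96% of all tested genes, while 2.73% of all genes were lower and 2.23% higher in BDL at that level. limma-voom called 0 genes in all, with 743 at an unadjusted p under 0.05 (4.96%). DESeq2 called 1 (0.00667%), which was none of the 7, and had 769 at that level (5.13%). The median log2 difference was -0.04 over the 7 genes and 0.00061 over all genes.

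**Figure D1:**
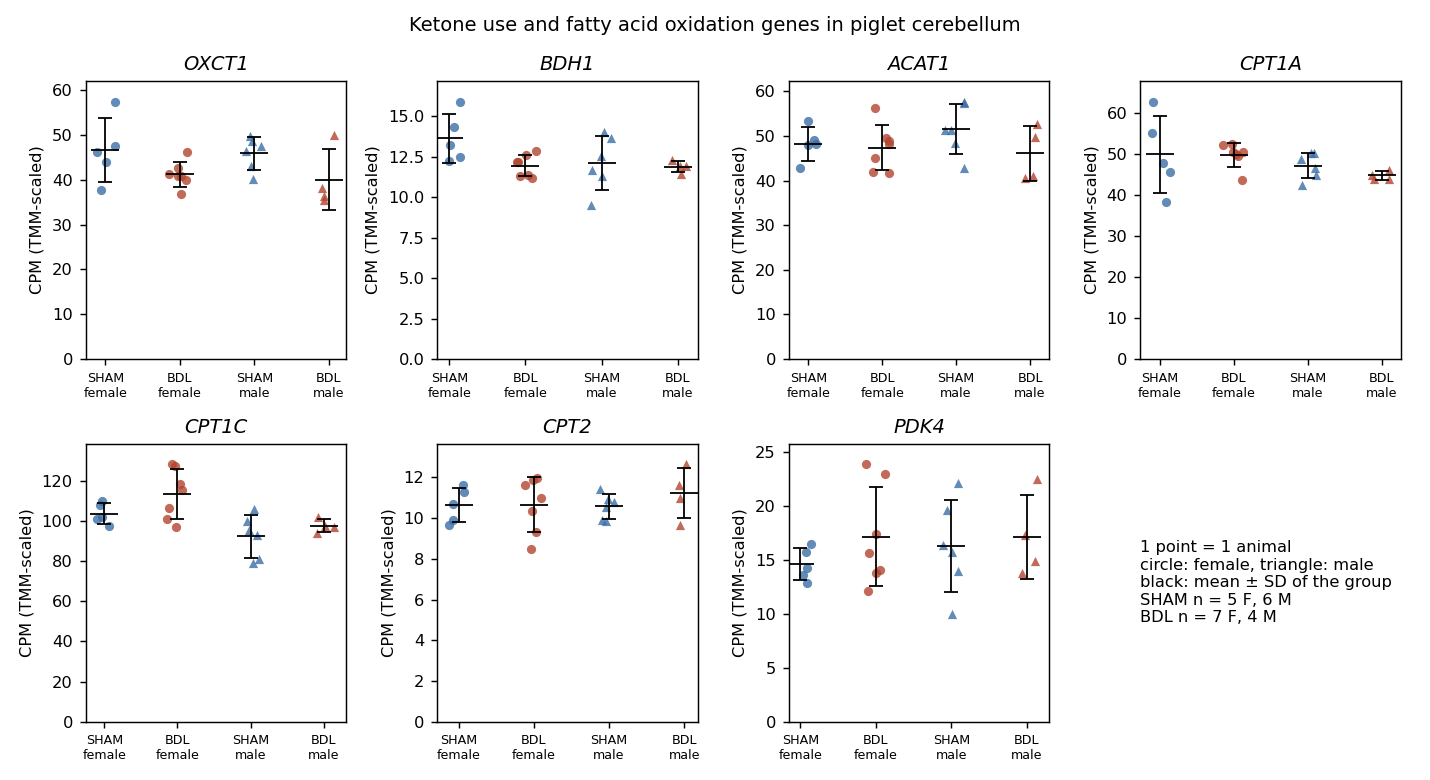
Level of each matched gene in the cerebellum of each piglet, in CPM (counts scaled to a fixed library size, vertical axis from 0), by surgery and sex. A point is 1 animal and the black mark is the group mean ± SD (SHAM 5 females and 6 males, BDL 7 females and 4 males). The BDL and SHAM animals overlap in all 7 panels. OXCT1 has 9 of 11 BDL animals below the SHAM mean, and CPT1C stands higher in females.

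OXCT1 (ENSSSCG00000016863) lies on chromosome 16, 26514497 to 26659739 on Sscrofa11.1, and a lncRNA gene overlaps its span in RefSeq. It had 586 to 977 counts per library. Its CPM, counts scaled by library size and edgeR's TMM factors, was 35.4 at the lowest, 40.8 at the median and 50.1 at the highest in the 11 BDL animals. In the 11 SHAM animals it was 37.7, 46.3 and 57.4. The groups overlapped over most of their range, with 3 BDL animals below every SHAM animal and 9 of 11 below the SHAM mean. Means were 40.8 ± 4.4 CPM in BDL and 46.2 ± 5.2 in SHAM (SD, n = 11 each), and the fitted log2 difference was -0.19 ± 0.07 (SE). Its 95% confidence interval, a BDL level of 0.799 to 0.969 times that of SHAM, left out equality by the unadjusted test (edgeR p = 0.0111, place 133 among 14994), but the adjusted p was 0.881. Within both sexes the mean was lower in BDL: 41.2 ± 2.8 against 46.6 ± 7.2 CPM in females (7 and 5 animals), and 40.0 ± 6.8 against 45.9 ± 3.6 in males (4 and 6 animals). The highest SHAM animal, the female SHAM replicate 6 at 57.4 CPM, and the highest BDL animal, the male BDL replicate 7 at 50.1, set the range over left-out animals: the log2 difference was -0.14 without the first and -0.24 without the second.

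BDH1 (ENSSSCG00000024109) lies on chromosome 13, 132602372 to 132647271. It was at 11.2, 11.9 and 12.9 CPM (lowest, median, highest) in BDL and at 9.54, 12.5 and 15.9 in SHAM. All BDL animals lay within the SHAM range, and 10 of 11 were below the SHAM mean. The spread differed between the groups, with an SD of 0.545 CPM around 11.9 in BDL and of 1.71 around 12.8 in SHAM. That difference in spread was seen in the values and was not tested. BDH1 had 173 to 260 counts per library, so counting noise is part of both spreads, and its share was not tested. The log2 difference was -0.12 ± 0.07 (edgeR adjusted p = 0.881; 0.834 to 1.02 times the SHAM level at 95% confidence). Without SHAM replicate 6, the SHAM animal highest in BDH1 as well, it was -0.08. Leaving out SHAM replicate 4, the lowest in BDH1, gave -0.15.

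ACAT1 (ENSSSCG00000026153; chromosome 9, 36525266 to 36545634), the mitochondrial thiolase that also closes isoleucine breakdown, was at 40.7, 48.2 and 56.3 CPM in BDL and at 42.8, 49.1 and 57.7 in SHAM. Here 4 BDL animals were below every SHAM animal and 9 of 11 below the SHAM mean of 50.1 ± 4.9 CPM. The log2 difference was -0.09 ± 0.07 (edgeR adjusted p = 0.881; 0.857 to 1.03 times SHAM).

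CPT1A (ENSSSCG00000012880; chromosome 2, 4250642 to 4293914), the broadly expressed outer-membrane form that commits fatty acids to oxidation and is inhibited by malonyl-CoA, had nearly equal means. Its values were 43.8, 49.5 and 52.6 CPM in BDL and 38.4, 47.8 and 62.9 in SHAM, so all BDL animals were inside the SHAM range and 6 of 11 were above its mean. The log2 difference was -0.04 ± 0.06 (edgeR adjusted p = 0.940; 0.893 to 1.07 times SHAM), and 0.01 without SHAM replicate 2, the female at 62.9 CPM.

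CPT1C (ENSSSCG00000024872; chromosome 6, 54732701 to 54747706) encodes the neuronal form, which sits in the endoplasmic reticulum, has little transferase activity and is known as a malonyl-CoA sensor. It was at 94.0, 101.9 and 128 CPM in BDL and at 78.9, 99.8 and 110 in SHAM. The highest 4 BDL animals, all female, exceeded every SHAM animal, while the medians were close. The log2 difference was 0.11 ± 0.06 (edgeR adjusted p = 0.881; 0.994 to 1.17 times SHAM; 7 of 11 above the SHAM mean). It was 0.14 without the sex term, since BDL held more females than SHAM and females were higher in this gene.

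CPT2 (ENSSSCG00000003851; chromosome 6, 159038129 to 159061327), the inner-membrane partner, was at 8.51, 11.01 and 12.6 CPM in BDL and at 9.64, 10.7 and 11.6 in SHAM. BDL animals lay on both sides, 2 below every SHAM animal and 4 above every one. It differed by 0.04 ± 0.07 on the log2 scale (edgeR adjusted p = 0.940; 0.929 to 1.14 times SHAM). Leaving out BDL replicate 11, the BDL animal highest in this gene, gave 0.01, and leaving out BDL replicate 2, the lowest, gave 0.07.

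PDK4 (ENSSSCG00000015334; chromosome 9, 75246956 to 75260134, a span that ASB4 and a lncRNA gene overlap in RefSeq) was the most variable of the 7. It was at 12.1, 15.7 and 23.9 CPM in BDL and at 9.99, 15.7 and 22.1 in SHAM. The medians were nearly equal, and the higher BDL mean (17.1 ± 4.1 against 15.5 ± 3.3 CPM) came with 3 BDL animals, replicates 1, 4 and 5 at 22.9, 23.9 and 22.5 CPM, above every SHAM animal. Its log2 difference was 0.16 ± 0.13 (edgeR adjusted p = 0.881). The interval, 0.926 to 1.35 times SHAM, was the widest of the 7, and the difference was 0.105 without BDL replicate 4 and 0.102 without BDL replicate 5. At the other end it was 0.209 without SHAM replicate 5. With animal number as a covariate it was 0.110. For 5 of the 7 genes, all but OXCT1 and PDK4, the interval lay inside a 1.25-fold change in either direction, against 63.6% of all tested genes.

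**Figure D2:**
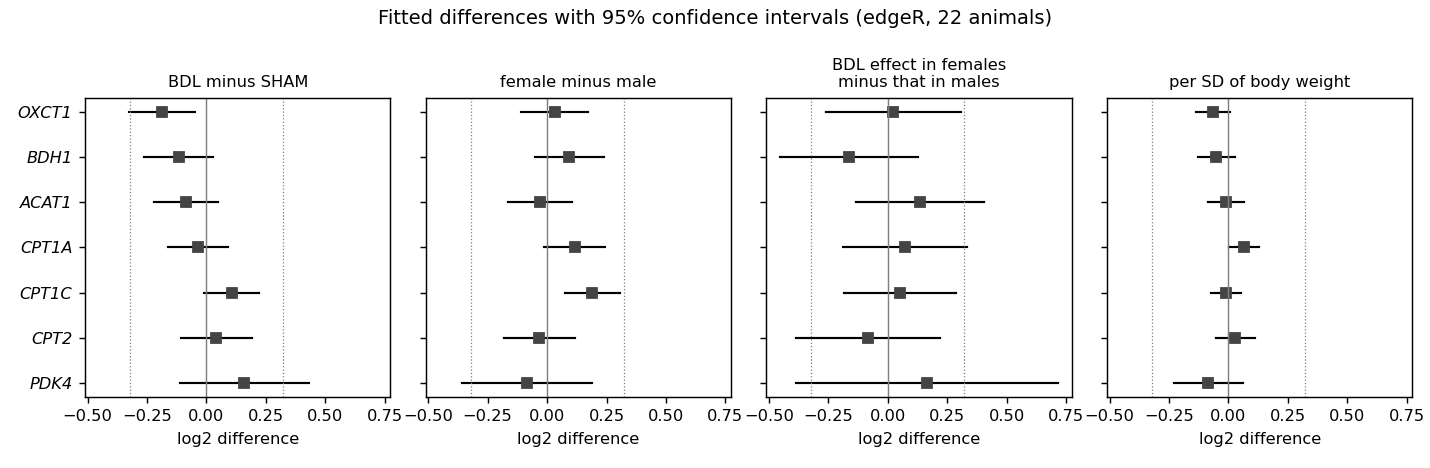
Fitted log2 differences (squares) with 95% confidence intervals (lines) for the 7 genes, from left to right for BDL minus SHAM, female minus male, the BDL effect in females minus that in males, and a rise of 1 SD in body weight. Dotted lines mark a 1.25-fold change. OXCT1 at -0.19 is farthest from 0 in the first panel, CPT1C at 0.19 in the second, and the interaction intervals are the widest.

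Between the sexes, CPT1C stood out among the 7 as a value, though it did not pass. The 12 females had a mean of 109.3 ± 10.8 CPM, all of them above the mean of the 10 males, 94.4 ± 8.6 CPM. The highest male, at 106.0 CPM, was nevertheless above the lowest female, at 97.1, so the sexes overlapped. The log2 difference was 0.19 ± 0.06 (edgeR unadjusted p = 0.00236, place 70 among 14994; adjusted p = 0.498), with 1.05 to 1.24 times the male level at 95% confidence. CPT1A, the sister gene, had a female minus male difference of 0.12 ± 0.06 (edgeR adjusted p = 0.856), and of 0.07 without SHAM replicate 2. The values of the other 5 genes lay between -0.08 and 0.09. None of the 7 was among the 9 genes called between the sexes (0.0600% of those tested), and 5.95% of all genes had an unadjusted p under 0.05.

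A difference between the BDL effects of females and males was tested as an interaction of sex and treatment. edgeR's test called 0 of the 7 and 0 genes in all (0%), and 4.60% of all genes had an unadjusted p under 0.05. The other tools, limma-voom and DESeq2, also called 0, with 5.02% and 4.91% at that level. The values ran from -0.16 ± 0.14 for BDH1 to 0.16 ± 0.27 for PDK4, the female effect minus the male effect, with adjusted p between 0.917 and 0.986. Over left-out animals the PDK4 value ran from 0.058 (without SHAM replicate 5) to 0.327 (without BDL replicate 5). That of BDH1 was -0.10 without SHAM replicate 4 or without SHAM replicate 6, and -0.20 without SHAM replicate 2. BDH1 had group means of 11.95 ± 0.66 CPM in BDL females, 13.6 ± 1.5 in SHAM females, 11.9 ± 0.3 in BDL males and 12.1 ± 1.7 in SHAM males. The interval of the PDK4 value ran from -0.39 to 0.72, so a sizeable sex difference in either direction lay within it.

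The labels also give each piglet a weight, with a mean of 2044 ± 313 for the BDL animals and 2035 ± 273 for the SHAM animals. Neither the unit nor the age at weighing is given, so whether this weight reflects nutrition after surgery was not tested. Over all animals 1 SD was 286. Per SD of weight, beside sex and treatment, CPT1A was higher by 0.06 ± 0.03 on the log2 scale (edgeR unadjusted p = 0.0488, adjusted p = 0.675), OXCT1 lower by a similar size (-0.07 ± 0.03, adjusted p = 0.683) and BDH1 at -0.05 ± 0.04. PDK4 was at -0.08 ± 0.07 and the others between -0.01 and 0.03. Single animals moved these slopes: PDK4 was at -0.02 without BDL replicate 4, OXCT1 at -0.04 and BDH1 at -0.02 without SHAM replicate 6, CPT1A at 0.04 without SHAM replicate 2, and CPT2, at 0.03 with all animals, at 0.01 without BDL replicate 2 and 0.06 without BDL replicate 4. None passed, with 0 genes called in all (0%) and 7.39% of all genes at an unadjusted p under 0.05. limma-voom called 0 genes by weight, with 1148 at that level (7.66%). DESeq2 called 8 (0.0534%), with 1175 at that level (7.84%), and none of the 7 genes passed there either. Adding weight to the model of BDL against SHAM left every one of the 7 differences on the same side.

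The wider network of fuel oxidation was described with 7 lists of other genes, 101 in all, of which 88 had an identifier and 82 passed the count filter. Of these 82, 0 passed edgeR's test of BDL against SHAM (0% of all genes did), 47 were on the lower and 35 on the higher side, and 6 (7.32%) had an unadjusted p under 0.05, beside 4.96% of all tested genes. The median log2 difference was -0.01. In 65 of the 82 (79.3%) the 95% confidence interval lay inside a 1.25-fold change, against 63.6% of all tested genes. The lists also held 0 genes called between the sexes, in the interaction or with weight.

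Ketone synthesis, use and transport genes had 4 of 9 tested members on the higher side (median -0.0096). The carrier SLC16A7, a neuronal monocarboxylate transporter, averaged 11.3 ± 2.7 CPM in the BDL animals and 13.4 ± 3.1 in the SHAM animals (-0.23 ± 0.14). SLC16A8, the monocarboxylate transporter known from retinal pigment epithelium and choroid plexus, had 3 to 24 counts per library and a difference of 0.37 ± 0.25. Both had an edgeR adjusted p of 0.881.

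Fatty acid activation and carnitine shuttle genes split 5 and 5 (median -0.0050). CPT1B, the form known from muscle, had 85.6 ± 13.5 CPM in BDL against 77.0 ± 6.3 in SHAM (0.14 ± 0.07). Its span ends 376 bases from CHKB, and BDL ran from 68.1 to 108 CPM against 67.0 to 87.6 in SHAM. ACSL6, the acyl-CoA synthetase that retains docosahexaenoic acid in brain, was at -0.08 ± 0.05. SLC25A20, which exchanges acylcarnitine for carnitine across the inner membrane, was at 25.5 ± 1.8 and 25.7 ± 3.6 CPM (0.0031 ± 0.0704; this gene was chosen for its role after its value was seen).

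Mitochondrial beta-oxidation genes split 9 higher and 8 lower (median 0.01), and all 17 intervals lay inside 1.25-fold (63.6% over all tested genes). ACAD10, an acyl-CoA dehydrogenase family member, averaged 34.9 ± 2.9 CPM with BDL and 31.8 ± 2.1 with SHAM (0.11 ± 0.05). ACADSB, which dehydrogenates short branched acyl-CoA from isoleucine, was at 37.5 ± 4.2 and 41.1 ± 2.6 (-0.11 ± 0.06). Peroxisomal beta-oxidation, which shortens very long chains and bile acid precursors, had 7 of 12 members on the lower side (median -0.01). HSD17B4, a bifunctional enzyme of this pathway, was at -0.12 ± 0.05 (edgeR adjusted p = 0.881), with 9 of 11 BDL animals below the SHAM mean. The groups overlapped in all 3 of these genes.

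Pyruvate dehydrogenase genes and their kinases and phosphatases had 9 of 12 members on the lower side (median -0.03), with all 12 intervals inside 1.25-fold (63.6% over all tested genes). PDP1, the phosphatase that opposes the PDK kinases, had means of 55.3 ± 7.3 CPM in BDL and 61.0 ± 4.6 CPM in SHAM (-0.14 ± 0.07), and DLAT, the acetyltransferase subunit, was at -0.07 ± 0.04, below the SHAM mean in 10 of 11. The sister kinase PDK2, the abundant brain form, was at 263 ± 23 and 256 ± 17 CPM (0.04 ± 0.05; chosen after its value was seen, to stand beside PDK4).

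Genes of malonyl-CoA and transcriptional control had 10 of 15 members on the lower side (median -0.05). PPARGC1B, a coactivator of mitochondrial and lipid genes, averaged 15.99 ± 1.82 CPM after BDL and 19.4 ± 4.8 CPM after sham surgery, with a log2 difference of -0.30 ± 0.10 (unadjusted p = 0.00788, edgeR adjusted p = 0.881). All 11 BDL animals, at 13.0 to 18.9 CPM, were below the SHAM mean, but the SHAM animals ran from 14.6 to 28.3 and overlapped them. The PPARGC1B difference was -0.23 without SHAM replicate 2 and -0.34 without SHAM replicate 7. RXRA, the partner receptor of the PPARs, was on the higher side (0.15 ± 0.07, 10 of 11 above the SHAM mean). PPAR and fasting targets split 4 higher and 3 lower (median 0.0044), with PLIN2, a lipid droplet coat gene, at -0.09 ± 0.07 and ANGPTL4, a secreted lipase inhibitor, at 0.19 ± 0.22 (1.55 ± 0.65 and 1.38 ± 0.43 CPM). With animal number as a covariate ANGPTL4 was at 0.10. It was at 0.05 when BDL replicate 1 was left out and at 0.12 when SHAM replicate 9 was, and PLIN2 was at -0.06 without SHAM replicate 2.

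**Figure D3:**
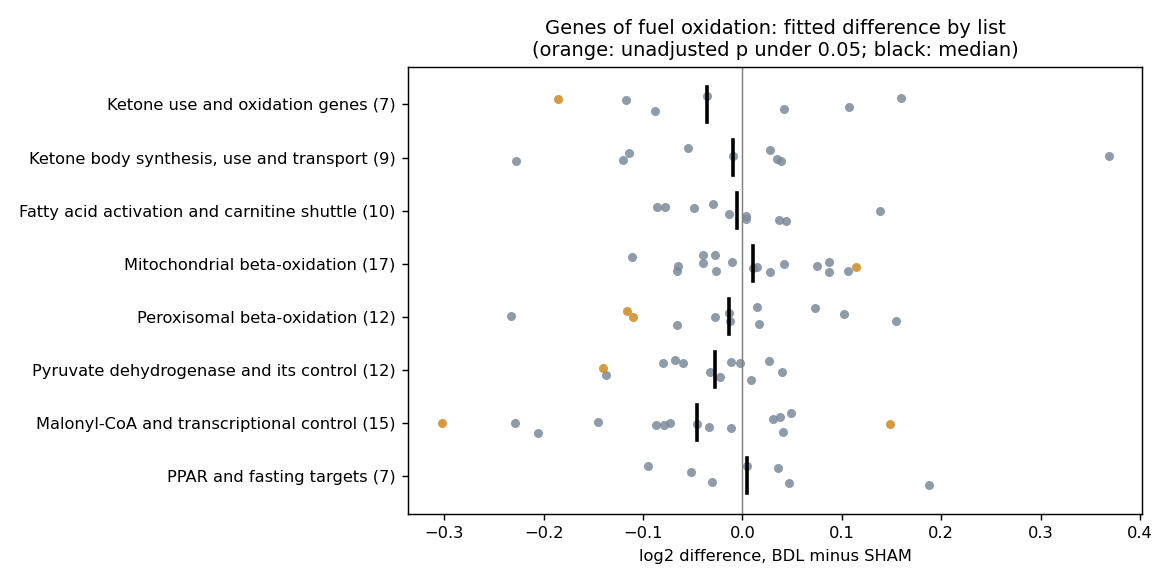
Fitted log2 difference of BDL minus SHAM for each tested gene, by list, with the number of tested genes in brackets. Black bars are list medians and orange points have an unadjusted p under 0.05. The list medians lie between -0.05 and 0.01, and points fall on both sides of 0 in every list.

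Among animals, the 7 genes differed in how variable they were. edgeR's estimate of the biological coefficient of variation is drawn toward that of genes of similar level. For PDK4 the estimate was 20.7%, larger than in 88.2% of the 500 tested genes nearest to PDK4 in level. The other 6 were between 9.43% and 10.99%. For BDH1 and CPT2 this was low for their level, larger than in 6.20% of their 500 neighbours in each case, while the remaining 4 were near the middle (52.0% to 59.0%).

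The 7 genes did not vary as 1 block. After sex and treatment were removed, 1 of their 21 pairs passed (permutation tests with 100000 resamples, adjusted over the 21 pairs), and 10 of the 21 correlations were positive. CPT1C and PDK4 were opposed across the 22 animals: Pearson's r was -0.693 (adjusted p = 0.00882, raw p = 0.000420) and Spearman's rho -0.691 (adjusted p = 0.0111, raw p = 0.000530), with r = -0.675 without the 2 animals farthest from the CPT1C median. The correlation was -0.552 in BDL (permutation p = 0.0796, n = 11; rho -0.591, p = 0.0597) and -0.851 in SHAM (permutation p = 0.000980, n = 11; rho -0.745, p = 0.0115). The opposed pattern was not seen in both parts of the series of animal numbers, a split that was not planned beforehand. In the 11 animals numbered 400 to 410 r was -0.798 (permutation p = 0.00340; rho -0.691, p = 0.0222), and in the 11 numbered 411 to 421 it was 0.022 (p = 0.947; rho -0.045, p = 0.903). The difference between these was not tested, the labels do not say that the numbers mark a batch, and both sets held BDL and SHAM animals (6 and 5, then 5 and 6). PDK4 itself ranged more widely in the first set, from 9.99 to 23.9 CPM (SD 4.44), than in the second, from 12.1 to 16.4 CPM (SD 1.35). Whether the narrower range bears on r in the second set was not tested. The mean of PDK4 was 18.2 CPM in the first set and 14.4 in the second. The 3 BDL animals above every SHAM animal in PDK4, numbers 400, 404 and 405, were all in the first set.

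**Figure D4:**
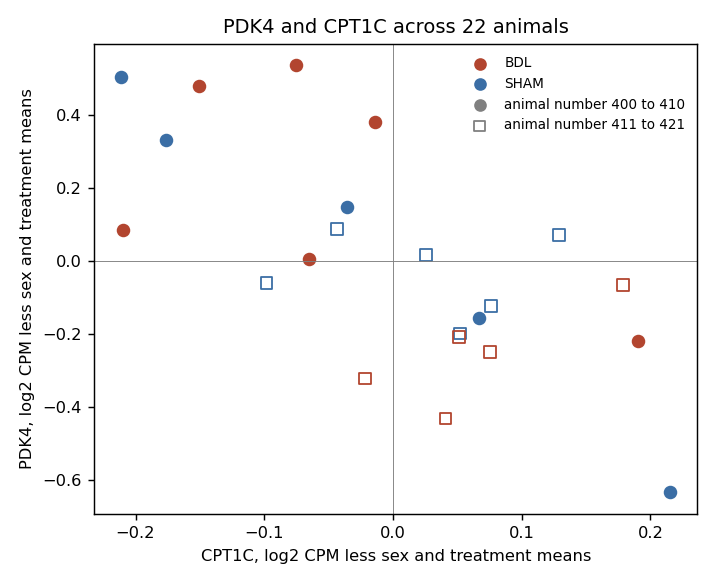
PDK4 against CPT1C in 22 animals, both as log2 CPM after the means of sex and treatment were removed. Colour gives the surgery and filled circles or open squares the animal number. The filled circles (numbers 400 to 410, r = -0.798) carry the opposed pattern, and the open squares (411 to 421, r = 0.022) do not show it.

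Other pairs did not pass. ACAT1 and CPT2 were also opposed (r = -0.561, permutation adjusted p = 0.0738, raw p = 0.00703; rho -0.558, adjusted p = 0.0823; r = -0.526 without the 2 farthest animals). OXCT1 and ACAT1, successive enzymes of ketone use, had the highest positive value (r = 0.474, permutation adjusted p = 0.133; rho 0.490, adjusted p = 0.159), and BDH1 was not tied to OXCT1 (r = 0.152, adjusted p = 0.744).

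For each of the 7 genes the 2 most similar genes across the 22 animals, by Pearson's r of the same values among 12316 others with a symbol, are given as a description, since the highest of so many correlations is high by selection. PDK4 was nearest to STON2, an endocytic adaptor gene (r = 0.825), and MYH11, the smooth muscle myosin heavy chain gene (r = 0.808). CPT1C was nearest to GGT7 (r = 0.826) and TCAIM (r = 0.823), and CPT1A to SLC20A2, a phosphate transporter gene (r = 0.848), and P2RX7, an ATP-gated channel gene (r = 0.827). CPT2 was nearest to SLC6A8, the creatine transporter gene (r = 0.849), and LZTS2 (r = 0.848). ACAT1 was nearest to DCTN6, a dynactin subunit gene (r = 0.838), and CDC5L, a spliceosome gene (r = 0.837). OXCT1 was nearest to ZSCAN26 (r = 0.787) and ZNF470 (r = 0.728), and BDH1 to CCDC154 (r = 0.787) and PLEKHD1 (r = 0.766). None of the 7 was in the nearest pair of another.

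Markers of cerebellar neurons were high, with summed levels of 4215 to 5419 CPM for 6 granule neuron genes and 2427 to 3873 for 6 Purkinje cell genes over the 22 animals. The 6 oligodendrocyte markers varied from 4814 to 27484 CPM in BDL and from 6868 to 24135 in SHAM, and the 6 astrocyte markers from 3715 to 6902 and from 4781 to 7525. The 4 choroid plexus markers varied most, from 13.8 to 1466 CPM in BDL and from 4.20 to 896 in SHAM, mostly as TTR. Microglia (95.2 to 209), endothelium (112 to 208) and pericyte and smooth muscle markers (96.4 to 171) overlapped between the groups, as did the 6 blood cell markers at 9.03 to 24.6 CPM in BDL and 7.05 to 22.2 in SHAM. The medians still differed in places: blood cell markers summed to 15.5 CPM in BDL and 10.1 in SHAM, with 4 of 4 tested genes on the higher side in BDL. Oligodendrocyte markers summed to 16134 and 14077 CPM, with 6 of 6 on the higher side, and pericyte and smooth muscle markers to 134.5 and 154.5 CPM, with 1 of 5 on the higher side. Choroid plexus markers had medians of 45.5 CPM in BDL and 78.1 in SHAM, with 2 of 3 tested genes on the higher side. For astrocyte markers the medians were 6299 and 5664 CPM, though only 2 of 6 genes were on the higher side. The 4 hepatocyte genes summed to 303 to 852 CPM, of which TF, also made by oligodendrocytes, reached 683 and ALB, the defining one, at most 5.34. The other two were not near 0: APOA1, an apolipoprotein gene, ran from 90.5 to 183 CPM and CYP2E1, a cytochrome P450 gene, from 21.8 to 30.6 CPM. The 2 matched muscle genes reached 5.44. No matched marker was at 0 in all libraries. Over 77 relations between the 7 genes and the 11 summed marker lists, 0 passed (permutation tests, adjusted over the 77). The closest values were CPT2 with the hepatocyte list (r = 0.612, permutation adjusted p = 0.108; rho 0.514) and with oligodendrocyte markers (r = 0.608, adjusted p = 0.108; rho 0.477). PDK4 with choroid plexus markers came next (r = 0.579, permutation adjusted p = 0.128; rho 0.492). Leaving out the 2 animals farthest from the marker median gave r = 0.448, 0.486 and 0.511 in that order. CPT1C and PDK4 leaned opposite ways with oligodendrocyte markers (r = -0.495 and 0.414) and with granule neuron markers (r = 0.465 and -0.430). Without the 2 animals farthest from the marker median, these were -0.212 and 0.214, then 0.216 and -0.383. What part these cells have in the values of the 7 genes, or in their correlations with each other, was not tested.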

How the data were processed

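RNA of 22 piglet cerebella was sequenced as 150 bp read pairs, per the labels' protocols. The authors deposited 1 table of raw counts per animal, whole numbers of reads for each Ensembl gene. The submitters' processing notes name Trim Galore, HISAT2, HTSeq and DESeq2 and the build Sscrofa11.1. These sources give no versions, annotation release or strand setting, so reads of overlapping genes may have been mixed or left out. The 5 closing lines that name no gene (29.9% to 34.6% of counted reads) were left out. Libraries held 14811464 to 20046909 gene counts, and no 2 looked like 1 library deposited again (chi-square per degree of freedom 6.82 to 48.1 over 231 pairs).

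Genes were matched by a table of Ensembl symbols (15029 of 31907 identifiers), and positions came by symbol from RefSeq's Sscrofa11.1 table. Counts were filtered (edgeR 4.0.16 filterByExpr, minimum count 10, minimum total 15), scaled by TMM and tested by edgeR's robust quasi-likelihood test in R 4.3.3 on sex and treatment. The interaction used the 4 groups of sex and treatment, and weight was added per SD. p-values were adjusted by Benjamini-Hochberg over all 14994 genes, with a threshold of 0.05. Correlations used log2 CPM with a prior count of 2. The tests were checked on simulated data. Alternatives were DESeq2 1.42.0 (its size factors and its test), limma-voom 3.58.1, no filter, other covariates and each animal left out.

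The genes, lists and tests were chosen with earlier results of these data known. The genes named are the 8 chosen, the 2 of smallest p in each list and the 2 most similar to each; some of these are not reported here, and others were chosen after their values were seen, as stated. Replicates were numbered in accession order, which pairs nothing. Nothing says that animals came from separate litters, so p-values measure the spread between these animals. Sequences were not used here.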

Additional observations from a re-analysis of the deposited data

Results flagged for a closer look

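Within surgery and sex, 28 sets of values (7 genes in 4 groups) were examined for a single animal far from the rest. In 1 set such an animal was found. Chance flags about 1 set in 20, so 1 of 28 was near the chance share. Among the 7 BDL females, BDL replicate 2 had 43.8 CPM of CPT1A, below the next animal at 49.5 and the other females up to 52.6 CPM. The same animal had the highest CPT1C level of all 22 (128 CPM) and the lowest CPT2 level (8.51 CPM).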

How the results depend on the processing

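No paired analysis was possible because replicates are numbered in accession order only and the labels pair no animals. Of the 203 alternative values of the 7 genes in BDL against SHAM, 202 kept their side of 0 and of the threshold. The exception was CPT1A, which ran from -0.080 to 0.013 over the 22 left-out animals. All 406 alternative values of the named pathway genes kept both. Of 560 values for sex, interaction and weight, 10 changed sign, all near 0 and none called. Over left-out animals the interaction of OXCT1 ran from -0.048 to 0.15 and its sex difference from -0.012 to 0.084 (-0.0029 with no treatment term). The weight slope of ACAT1 ran from -0.025 to 0.0025 and that of CPT1C from -0.026 to 0.0017. BDL against SHAM had 1 called gene by DESeq2 and 0 in every other fit. Between the sexes 9 genes were called, 31 without the count filter, 23 by DESeq2 and 7 to 26 over left-out animals. Each of the 12 females left out gave 21 to 26. The count filter asked for 10 libraries whenever any animal was left out, and 10 is also the number of males. Whether this gave the added calls was not tested. By weight DESeq2 called 8, and leaving out animals gave 0 to 9 (9 without SHAM replicate 1, 3 without BDL replicate 4). With DESeq2 size factors 2 pairs of genes were correlated in place of 1, ACAT1 with CPT2 being the added pair (r = -0.595, permutation adjusted p = 0.0376). For these changes the cause was not tested. Alternatives for the correlations were chosen after seeing the data.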
